A study of Mus musculus with 8 samples.

Results

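DNA methylation was examined at 6 receptors of the tumour necrosis factor (TNF) receptor family in resting mouse lymphocytes: *Tnfrsf13b*, *Tnfrsf13c*, *Tnfrsf17*, *Cd40*, *Cd27* and *Tnfrsf9*. They are 6 of the 21755 protein-coding genes on the autosomes and X, and were chosen as a family of receptors with known roles in B or T cells, by no rule on methylation, although earlier results of these data were known. Each locus was the annotated gene with 10 kb to either side (GENCODE M21 on GRCm38). Together the loci held 2811 of the 18714703 CpGs that had 5 or more reads in every file.

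Cells came from the spleen of C57BL/6J mice, an inbred strain, aged 6 to 8 weeks, with no treatment or engineered allele, and were pooled over animals. The B cells were resting B cells lacking CD43, and the T cells were naive CD4+ cells with high CD62L, each from females and from males. The 8 samples form 4 groups of 2, but each group had 1 file, so the data hold 4 measurements (female B, female T, male B, male T) and no spread between pools of a kind. Each sex thus gives a B and T difference once. Whole-genome bisulfite sequencing takes as the level of a CpG the percentage of its reads left unconverted, and reads 5-methylcytosine and 5-hydroxymethylcytosine alike. In a pool, an intermediate level may be a share of cells or of alleles, and these cannot be told apart.

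TNF receptors signal through TRAF adaptor proteins to NF-kappaB. *Tnfrsf13c* encodes BAFF-R, the receptor through which the cytokine BAFF keeps mature B cells alive. *Tnfrsf13b* encodes TACI, which binds BAFF and APRIL on mature B cells, and *Tnfrsf17* encodes BCMA, which binds the same ligands and is best known from plasma cells. *Cd40* encodes the B cell receptor for the CD40 ligand of helper T cells. *Cd27* encodes the CD70 receptor carried by naive T cells, and *Tnfrsf9* encodes 4-1BB, a costimulatory receptor induced on activated T cells.

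In short stretches at each locus the cell types were far apart. The sequences below are, for each receptor, up to 240 bases with the largest summed B and T difference inside 1 called 1 kb window. That window had the largest smaller of the female and male differences, and bases in an annotated UTR were not used. The levels of the sequences are thus descriptions and carry no test. They are GRCm38 reference sequence, 5′ to 3′ on the strand of the receptor gene, with CpGs in capitals.

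*Tnfrsf13b*, chr11:61122655-61122891, + strand, before the gene: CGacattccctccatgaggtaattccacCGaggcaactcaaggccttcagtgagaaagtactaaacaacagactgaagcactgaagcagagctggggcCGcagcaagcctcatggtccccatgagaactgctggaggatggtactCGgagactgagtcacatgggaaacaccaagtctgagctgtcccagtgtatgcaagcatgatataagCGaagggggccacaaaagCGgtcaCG
*Tnfrsf13c*, chr15:82229706-82229913, - strand, before the gene, in an intron of the lincRNA *Gm49503*: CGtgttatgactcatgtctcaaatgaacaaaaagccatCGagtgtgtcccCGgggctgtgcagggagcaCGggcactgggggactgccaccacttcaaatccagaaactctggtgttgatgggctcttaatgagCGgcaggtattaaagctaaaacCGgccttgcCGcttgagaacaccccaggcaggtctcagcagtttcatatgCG
*Tnfrsf17*, chr16:11316436-11316675, + strand, intron: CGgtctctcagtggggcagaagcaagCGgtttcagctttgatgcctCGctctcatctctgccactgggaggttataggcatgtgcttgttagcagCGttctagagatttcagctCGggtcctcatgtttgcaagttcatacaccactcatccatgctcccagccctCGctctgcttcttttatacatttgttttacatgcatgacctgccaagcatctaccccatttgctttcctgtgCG
*Cd40*, chr2:165061665-165061892, + strand, intron: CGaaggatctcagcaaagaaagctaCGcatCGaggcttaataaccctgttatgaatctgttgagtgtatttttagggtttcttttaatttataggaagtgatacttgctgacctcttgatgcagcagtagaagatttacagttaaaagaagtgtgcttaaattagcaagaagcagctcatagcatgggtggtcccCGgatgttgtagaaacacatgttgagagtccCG
*Cd27*, chr6:125233648-125233784, - strand, coding exon: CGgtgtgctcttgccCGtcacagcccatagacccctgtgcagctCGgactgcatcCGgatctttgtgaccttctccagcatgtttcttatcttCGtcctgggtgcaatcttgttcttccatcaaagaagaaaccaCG
*Tnfrsf9*, chr4:150940095-150940289, + strand, intron: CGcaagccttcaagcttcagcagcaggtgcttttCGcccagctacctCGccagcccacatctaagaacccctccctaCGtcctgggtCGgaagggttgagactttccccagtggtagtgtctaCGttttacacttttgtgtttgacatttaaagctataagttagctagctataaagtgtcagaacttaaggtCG

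Over the 7 CpGs of the *Tnfrsf13b* sequence the level was 2.19% (female B) and 3.18% (male B) versus 94.1% (female T) and 97.7% (male T). The 8 CpGs of the *Tnfrsf13c* sequence stood at 9.09%, 4.62%, 93.6% and 96.1% in the same order. In *Cd27* the order was turned, with 88.6% (female B) and 93.3% (male B) versus 10.3% (female T) and 2.27% (male T) over 6 CpGs. These 3 sequences thus ranged from low in one cell type to nearly full in the other. The 5 CpGs of the *Cd40* sequence had no methylated read in either B cell file and 64.5% (female) and 67.9% (male) of reads methylated in the T files. For *Tnfrsf17* the levels were 22.7% and 31.9% in the B files versus 88.0% and 87.9% in the T files, and for *Tnfrsf9* 71.2% and 67.1% in the B files versus 2.31% and 0.943% in the T files.

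The sequences just before the start of 3 of the genes, from RefSeq on GRCm38.p6 and again with CpGs in capitals, are shown for a start that was partly methylated in B cells, a start low in both cell types and a start low in T cells. RefSeq promoter sequences were matched for 5 of the 6 receptors, all but *Cd40*.

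*Tnfrsf13b*, chr11:61126505-61126754, + strand: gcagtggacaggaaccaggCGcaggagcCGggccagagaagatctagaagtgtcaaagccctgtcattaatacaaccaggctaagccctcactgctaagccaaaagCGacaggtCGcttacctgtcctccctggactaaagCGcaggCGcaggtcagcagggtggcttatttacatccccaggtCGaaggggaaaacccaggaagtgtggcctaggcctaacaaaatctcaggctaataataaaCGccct
*Tnfrsf13c*, chr15:82224381-82224630, - strand: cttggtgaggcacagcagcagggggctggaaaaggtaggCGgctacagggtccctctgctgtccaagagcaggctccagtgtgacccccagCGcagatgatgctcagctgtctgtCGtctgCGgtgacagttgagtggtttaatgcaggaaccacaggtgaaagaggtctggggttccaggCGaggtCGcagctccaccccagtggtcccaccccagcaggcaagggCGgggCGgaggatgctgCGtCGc
*Cd27*, chr6:125237028-125237277, - strand: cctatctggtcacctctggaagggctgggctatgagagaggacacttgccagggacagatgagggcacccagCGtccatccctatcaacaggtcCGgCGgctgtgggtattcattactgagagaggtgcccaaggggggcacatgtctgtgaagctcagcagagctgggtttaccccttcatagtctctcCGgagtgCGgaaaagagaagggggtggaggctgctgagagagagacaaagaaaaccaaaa

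In the 250 bases before *Tnfrsf13b* the 8 CpGs stood at 41.5% (female B) and 44.9% (male B) versus 90.2% (female T) and 88.0% (male T). The 10 CpGs before *Tnfrsf13c* were nearly free of methylation in all files, from no methylated read in female B cells (0 of 212 reads, which allows a level of up to 1.42%) to 1.62% in female T cells. The 5 CpGs before *Cd27* were at 28.4% and 21.4% in female and male B cells, with no methylated read in female T cells (0 of 105, which allows up to 2.86%) and 1.299% in male T cells. These limits and those given below, 3 reads of the total, cover counting error only. Reads were summed over CpGs, so a read over several CpGs counts once at each. The limits take these counts as independent and are thus too narrow.

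Promoters, taken as the annotated start with 1 kb to either side, were called at *Tnfrsf13b* and *Cd27*, in opposite directions. A feature was called where the quasi-binomial model of its reads, with terms for cell type and sex, gave a Benjamini-Hochberg adjusted p under 0.05 and the mean of the female and male differences reached 20 percentage points. That is 2 of 6 receptors, beside 0.915% of the 21082 promoters tested (91 lower and 102 higher in B cells). With 1 file left out 35 to 53 promoters were called over the genome, 1 to 2 of them receptors'. The median size of the difference was 7.13 points over the 6 receptors and 1.177 points over all promoters.

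The *Tnfrsf13b* promoter stood at 63.8% (female B, 95% Wilson interval 59.8 to 67.6) and 62.8% (male B, 59.1 to 66.4) versus 92.3% (female T, 90.4 to 93.9) and 93.0% (male T, 91.1 to 94.5). It was lower in B cells by a mean of 29.4 points (adjusted p = 3.17e-05). The *Cd27* promoter stood at 36.2% (female B, 31.6 to 41.1) and 39.7% (male B, 35.6 to 43.9) versus 3.50% (female T, 2.22 to 5.46) and 3.75% (male T, 2.47 to 5.66). It was higher in B cells by 34.3 points (adjusted p = 2.77e-05), and no B cell interval met a T cell interval at either promoter. Without the male T cell file the *Cd27* difference was 34.5 points with an adjusted p of 0.0602. Wilson intervals cover counting error only, and are too narrow for the same reason as the limits above.

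The other 4 promoters were low in all 4 files or high in all 4. At *Tnfrsf13c* the levels were 3.75% and 5.48% in the female and male B files versus 15.2% and 12.2% in the T files, a difference of -9.09 points that passed the p-value threshold (adjusted p = 0.00684) but not the size. The *Cd40* promoter was at 6.13% and 5.87% in the B files versus 10.1% and 12.2% in the T files (adjusted p = 0.113). *Tnfrsf9* lay between 4.60% and 7.81% in all files. *Tnfrsf17* was methylated throughout, between 89.4% and 93.2%, with a mean B minus T of 1.00 points (adjusted p = 0.898). The ratio of CpGs found to those expected from base composition was 0.676 at the *Tnfrsf9* promoter. Among the other 5 it ran from 0.220 at *Cd27* to 0.320 at *Tnfrsf13b*. A low promoter level was thus seen at low ratios (0.317 at *Tnfrsf13c*, 0.305 at *Cd40*) as well as at the highest. The ratio is taken over the whole promoter, not over the start alone.

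**Figure D1:**
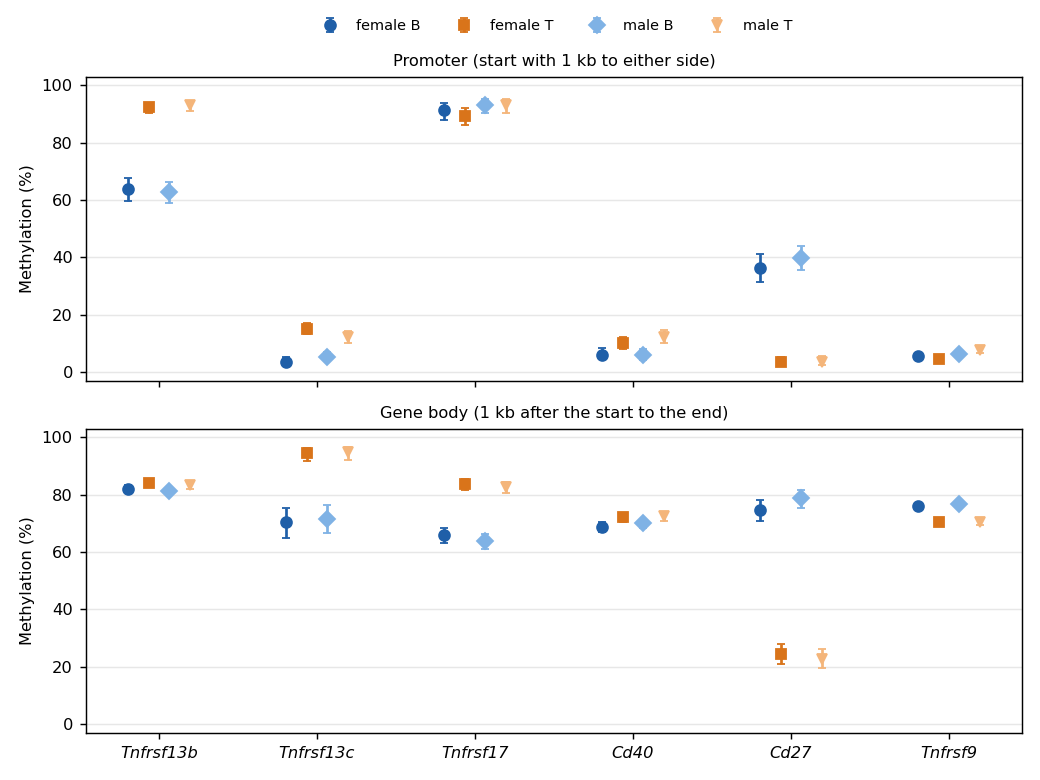
Methylation (%) of the promoter (top) and the gene body (bottom) of each receptor in the 4 files, with 95% Wilson intervals of counting error as bars. B and T cells part at the *Tnfrsf13b* and *Cd27* promoters and at the *Tnfrsf13c*, *Tnfrsf17* and *Cd27* bodies, with female and male files side by side in each cell type.

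Gene bodies, from 1 kb after the start to the end of the gene, were called at *Cd27* and *Tnfrsf13c*, 2 of 6 beside 0.595% of 20509 bodies (31 lower and 91 higher in B cells). The *Cd27* body stood at 74.8% (female B) and 78.7% (male B) versus 24.4% (female T) and 22.8% (male T), higher in B cells by 53.1 points (adjusted p = 2.85e-05). The *Tnfrsf13c* body was at 70.4% and 71.7% in the female and male B files versus 94.3% and 94.7% in the T files, lower in B cells by 23.5 points (adjusted p = 0.000535). This value rests on 26 CpGs, and with a minimum of 10 reads a CpG it was -12.7 points and no longer called. With the first 1 kb included it was -16.1 points and not called either (adjusted p = 0.0774).

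*Tnfrsf17* missed the size threshold with 66.0% and 63.7% in the B files versus 83.6% and 82.6% in the T files, a difference of -18.3 points (adjusted p = 0.000177). The *Tnfrsf9* body was higher in B cells by 5.91 points (adjusted p = 0.00122). The long bodies of *Tnfrsf13b* and *Cd40* differed by -2.01 and -2.87 points (adjusted p = 0.101 and 0.0962).

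Windows of 1 kb located the differences. Of the 209 windows tested in the 6 loci 34 were called (16.3%), 20 lower and 14 higher in B cells, and all 34 had the same direction in females and males, as had 41927 of the 41929 windows called over the genome. Of all 2018320 windows 2.08% were called, 0.913% lower and 1.16% higher in B cells. The median size of the difference was 3.81 points in the loci and 2.26 points over all windows. Every receptor had at least 1 called window, as had 48.1% of the 21600 protein-coding gene loci tested. *Tnfrsf13b*, *Tnfrsf13c*, *Tnfrsf17* and *Cd40* had calls in 1 direction only, lower in B cells, *Cd27* only higher in B cells, and *Tnfrsf9* both.

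All windows were given a single dispersion (1.31), because the fitted prior had infinite degrees of freedom. Window p-values thus use an average spread, not that of the window. With 1 file a group, this spread is the departure of the files from the cell type and sex terms. It is not a spread between pools of a kind. Very small values overstate the certainty of a single window. With the dispersion prior taken from all windows no window was called anywhere by the quasi-binomial model, although 82 of the 209 windows had an unadjusted p under 0.05, and limma on log2 ratios called 20 of the 209, all of them among the 34 and neither of those at *Cd40*.

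**Figure D2:**
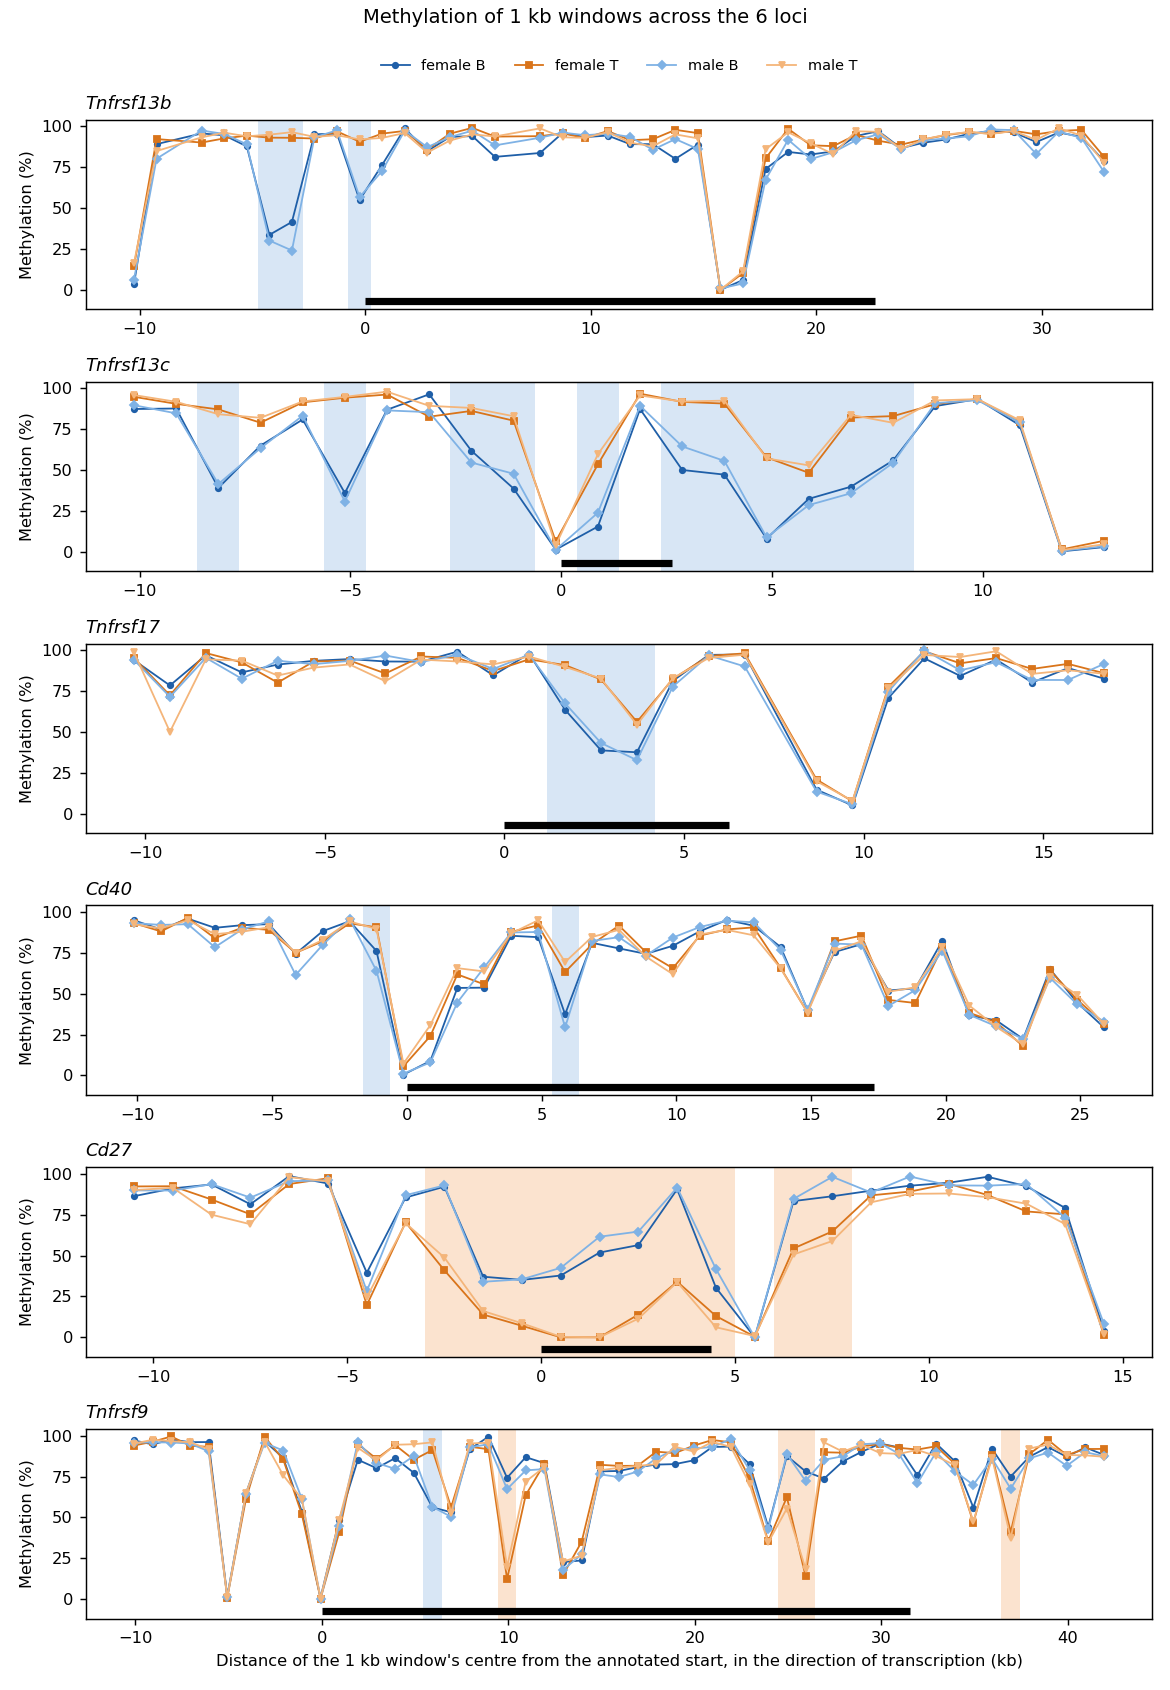
Methylation (%) of 1 kb windows against the distance from each gene's annotated start (kb, in the direction of transcription) in the 4 files. Black bars mark the genes, and shading marks the 34 called windows, blue where lower and orange where higher in B cells. The B cell lines drop below the T cell lines around *Tnfrsf13c*, the T cell lines drop across *Cd27*, and *Tnfrsf9* shows both.

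*Tnfrsf13c* (ENSMUSG00000068105.11, chr15:82221743-82224369, - strand) had the most called windows, 11 of 24, all lower in B cells. At least as many were found in 2.82% of protein-coding gene loci, which differ in length. They lay on both sides of a start that was nearly unmethylated in every file. The largest difference, -61.1 points (adjusted p = 1.9e-99), was at chr15:82229001-82230000, before the gene and over the end of the lincRNA *Gm49503*, with 35.9% (female B) and 30.7% (male B) versus 94.2% (female T) and 94.7% (male T).

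Farther from the gene on that side, chr15:82232001-82233000 in *Gm49503* stood at 39.0% and 41.4% in the B files versus 87.1% and 84.1% in the T files. Beyond the 3′ end, where no gene is annotated, 5 windows in a row were called from chr15:82216001 to chr15:82221000. In this block chr15:82219001-82220000 was the lowest in B cells, with 8.04% (female B) and 8.75% (male B) versus 57.7% (female T) and 57.1% (male T). In the same block chr15:82217001-82218000 stood at 39.8% and 35.8% in the B files versus 82.1% and 83.7% in the T files, and chr15:82220001-82221000 at 47.2% and 55.6% against 90.6% and 92.4%. The T cells were thus themselves below full methylation in part of this block.

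By single CpGs, 48 of the 456 CpGs measured at the *Tnfrsf13c* locus were lower in B cells by 50 points or more in both sexes and 0 higher, beside 0.312% lower and 0.425% higher of all CpGs measured. Stretches here are runs of 4 or more neighbouring CpGs at most 500 bp apart. Each CpG of a run differed by 20 points or more in the same direction, as the mean of both sexes. Large differences over a stretch thus follow in part from how it was chosen, and stretches are a description with no test. They were sought at the receptors' loci only, so their counts have no share over the genome beside them. The locus held 13 such stretches, all lower in B cells, of up to 12 CpGs and up to 679 bp. Inside the gene the 12 CpGs of the stretch over chr15:82223136-82223387, in a coding exon and UTR, were at 26.3% and 31.0% in the B files versus 80.3% and 84.4% in the T files. The neighbouring genes *Shisa8* and *Cenpm* reach into the flanks of the locus.

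*Tnfrsf13b* (ENSMUSG00000010142.12, chr11:61126755-61149372, + strand) had 3 called windows of 42, all lower in B cells, at the start and before it. Of all gene loci 19.9% had at least 3. The largest was chr11:61122001-61123000, with 33.6% (female B) and 30.2% (male B) versus 93.1% (female T) and 94.9% (male T), a difference of -62.1 points (adjusted p = 1.19e-107). The window after it was at 41.5% and 24.1% in the B files versus 93.0% and 96.5% in the T files, on 5 CpGs. No gene is annotated in either window.

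The single CpGs placed this difference in a stretch of 844 bp, chr11:61122462-61123305, where 13 CpGs were at 7.46% (female B) and 5.42% (male B) versus 94.1% (female T) and 97.2% (male T). At the start itself chr11:61126001-61127000 stood at 55.0% and 56.7% in the B files versus 90.6% and 92.0% in the T files (adjusted p = 8.03e-47). Here 12 CpGs over chr11:61126533-61126888 stood at 36.6% (female) and 38.5% (male) in the B files, and no T file was under 89.3%. Between the distal stretch and the start B and T cells were both highly methylated, as the plot of single CpGs shows, and the locus had 19 CpGs lower by 50 points or more in both sexes and 0 higher. The pseudogene *Gm12269* lies within the gene, and *Usp22* lies beyond its end.

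*Tnfrsf17* (ENSMUSG00000022496.5, chr16:11313812-11320074, + strand) had its 3 called windows of 27 next to each other inside the gene, all lower in B cells, while its start was methylated in all files. At least 3 were found in 19.9% of gene loci. In chr16:11316001-11317000, an intron, the levels were 38.7% (female B) and 43.2% (male B) versus 82.0% (female T) and 82.6% (male T), a difference of -41.4 points (adjusted p = 1.47e-26). The window before it, with a coding exon, was at 63.5% and 67.4% in the B files versus 90.8% and 89.7% in the T files. The window after it was at 37.5% and 32.7% against 56.1% and 54.3%, so that the T cells were lower there than in the rest of the gene's called windows. Without the male B or the female T file this window was at -17.7 and -19.3 points and not called. *Snx29* begins beyond the end of the gene. The promoters of the plasma cell genes *Prdm1*, *Sdc1* and *Xbp1* were at 2.78% to 7.48% in all files.

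*Cd40* (ENSMUSG00000017652.16, chr2:165055627-165072948, + strand) had the fewest called windows, 2 of 37, both lower in B cells. At least 2 were found in 29.7% of gene loci. In the intronic window chr2:165061001-165062000 the levels were 37.4% (female B) and 29.4% (male B) versus 63.3% (female T) and 69.4% (male T), a difference of -32.9 points (adjusted p = 5.07e-13) that was -21.8 points with a minimum of 10 reads a CpG and was not called by limma (adjusted p = 0.127). The 5 CpGs within it that are printed above had 0 methylated reads in B cells, and the reads of the female and male B cell files allow levels of up to 5% and 2.94%. The other, chr2:165054001-165055000 before the start, was at 76.2% and 64.0% in the B files versus 90.6% and 89.6% in the T files, a mean of -20.03 points that was -8.88 points with a minimum of 10 reads a CpG and -14.0 and -19.5 points without the male B and the female T file, not called in any of the 3.

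The 8 CpGs of a stretch after the *Cd40* start, chr2:165056653-165056965 in a coding exon, were at 16.8% and 13.4% in the B files versus 54.3% and 61.5% in the T files. A single stretch went the other way, the 4 CpGs at chr2:165065476-165065541 in an intron, with 70.5% and 76.2% in the B files versus 34.4% and 32.5% in the T files. *1700025C18Rik* reaches into the flank beyond the 3′ end.

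**Figure D3:**
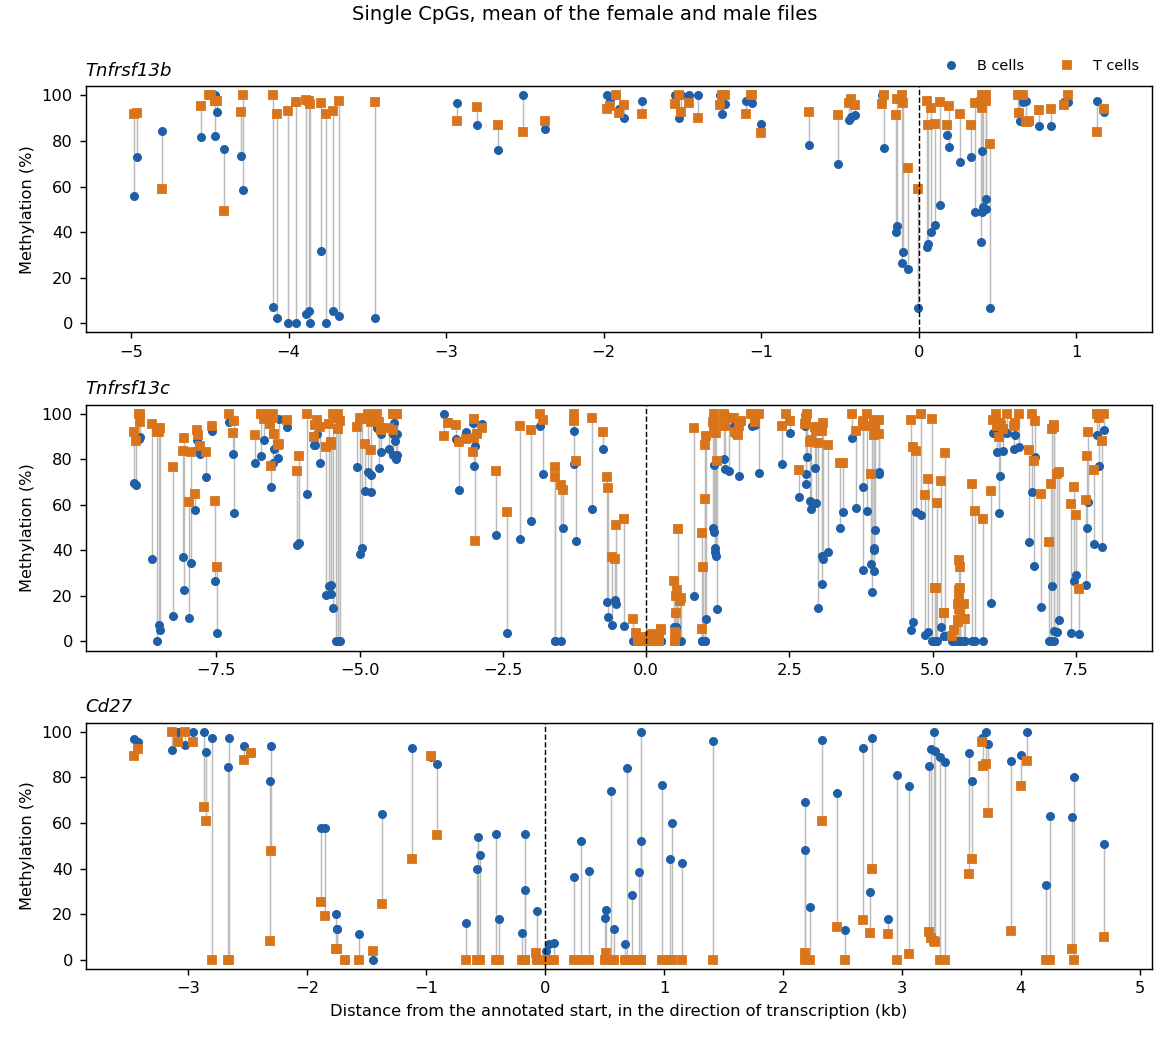
Methylation (%) of single CpGs against the distance from the annotated start (kb) at *Tnfrsf13b*, *Tnfrsf13c* and *Cd27*, as the mean of the female and male files, with B cells as circles, T cells as squares and grey lines joining both at a CpG. Before *Tnfrsf13b* a run of CpGs is near 0 in B cells and near 100 in T cells, and across *Cd27* many CpGs are at 0 in T cells.

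*Cd27* (ENSMUSG00000030336.14, chr6:125232622-125237010, - strand) was the reverse of the BAFF receptors, with 10 called windows of 26, all higher in B cells. That count or more was found in 3.34% of protein-coding gene loci. They covered the gene and part of both flanks. The largest, chr6:125233001-125234000 in the last part of the gene, was at 90.6% (female B) and 91.6% (male B) versus 34.0% (female T) and 33.7% (male T), a difference of 57.2 points (adjusted p = 7.13e-77).

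Toward the start the T cells had nearly no methylated read. In chr6:125235001-125236000 the levels were 51.9% and 61.5% in female and male B cells, and no read was methylated in T cells, where the 53 and 60 reads allow levels of up to 5.66% and 5%. In chr6:125236001-125237000, over the first part of the gene, they were 37.8% and 42.5% in the B files versus 0 and 0.306% in the T files, and 259 reads in female T cells allow up to 1.16%. The B cells here were intermediate and not fully methylated. The window chr6:125234001-125235000 was at 56.4% and 64.7% in the B files versus 13.9% and 11.4% in the T files, and chr6:125239001-125240000, before the gene, at 92.1% and 92.9% against 41.0% and 48.8%.

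The locus held 10 stretches, all higher in B cells, the longest of 731 bp over chr6:125235596-125236326 with 10 CpGs at 57.9% and 63.2% in B cells and no methylated read in T cells, where the female and male reads allow levels of up to 2.33% and 1.68%. By single CpGs 33 were higher in B cells by 50 points or more in both sexes and 1 lower. *Cd27* lies within *Vamp1*, a gene of the opposite strand, *Tapbpl* lies after its end, and *Mir8113* lies within it, so that the same CpGs belong to several annotated genes. Which of them the difference belongs to cannot be told apart.

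*Tnfrsf9* (ENSMUSG00000028965.13, chr4:150914562-150946102, + strand) had calls in both directions, 1 window lower and 4 higher in B cells of 53. Of all gene loci 10.6% had at least 5. The largest, chr4:150940001-150941000 in an intron, was at 78.2% (female B) and 72.4% (male B) versus 14.2% (female T) and 18.7% (male T), a difference of 58.8 points (adjusted p = 1.7e-54). Another, chr4:150924001-150925000, was at 74.3% and 67.3% in the B files versus 12.3% and 19.7% in the T files. The windows chr4:150939001-150940000 and chr4:150951001-150952000, the latter beyond the gene, were higher in B cells by 29.3 and 32.1 points.

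The window lower in B cells was chr4:150920001-150921000, with 56.1% and 56.4% in the B files versus 91.2% and 95.9% in the T files, a difference of -37.3 points (adjusted p = 9.87e-29). It holds a start that RefSeq gives for *Tnfrsf9*, at chr4:150920155, and the 6 CpGs of a stretch after it, chr4:150920862-150920928, were at 20.8% and 30.5% in the B files versus 91.0% and 95.2% in the T files. Within 500 bp of that start itself all files were between 90.1% and 96.3%. A second RefSeq start, at chr4:150927999, was low in all files, from 10.7% to 13.9%, as was the start of the annotation used here. Of the 3 starts 1 was thus methylated and 2 were low, in B and T cells. Beyond the end of the gene another stretch was lower in B cells, the 5 CpGs at chr4:150946300-150946430. They were at 37% and 29.8% in the B files versus 94.3% and 94.0% in the T files. The window chr4:150946001-150947000 around them, at -18.1 points, passed the p-value threshold (adjusted p = 1.77e-15) but not the size. Most of *Tnfrsf9* lies within *Camta1* on the opposite strand, and the promoter at its annotated start also holds the start of *Park7*.

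Between females and males 0 of the 209 windows were called by the quasi-binomial model, with 8 at an unadjusted p under 0.05, and limma on log2 ratios called 0, with 3 at an unadjusted p under 0.05. Of the 1950708 autosomal windows 0.00103% were called. The median size of the sex difference, as the mean over both cell types, was 1.91 points in the loci. The largest was 14.6 points at chr16:11304001-11305000 before *Tnfrsf17* (adjusted p = 1).

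**Figure D4:**
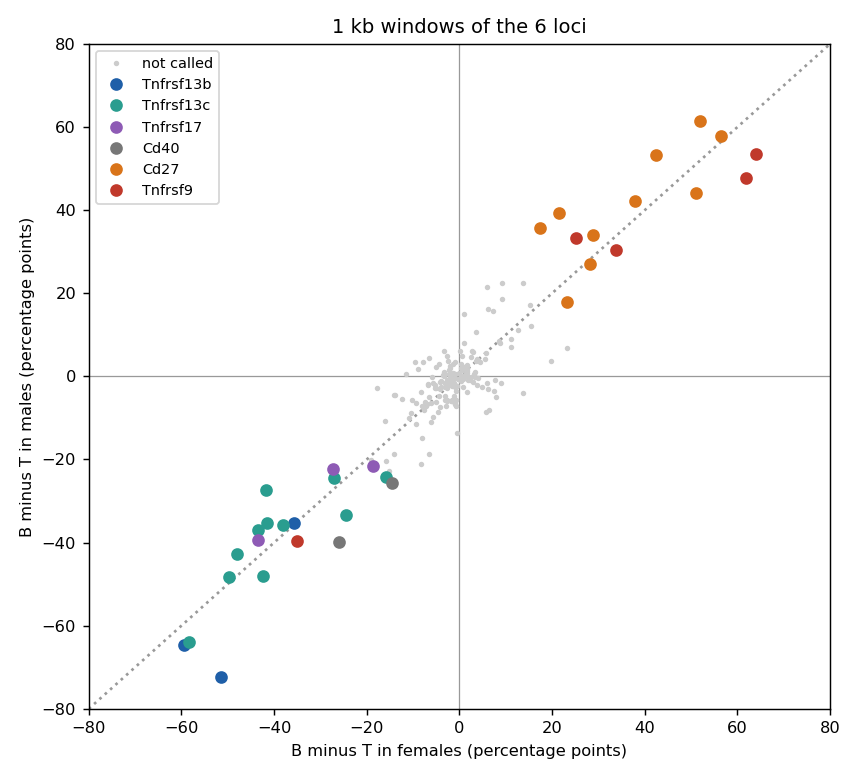
Difference between B and T cells (percentage points) in males against that in females for the 209 windows of the 6 loci. The 34 called windows, coloured by receptor, lie along the dotted line of equal values, below 0 for *Tnfrsf13b*, *Tnfrsf13c*, *Tnfrsf17* and *Cd40*, above 0 for *Cd27*, and on both sides for *Tnfrsf9*.

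Among the other genes of the pathway the promoters of *Cd40lg* and *Tnfrsf4* were called, both higher in B cells. They are 2 of 42 genes (5 ligands, 15 signalling genes, 22 other TNF receptors), beside 0.915% of all promoters, and the median size of the difference was 1.45 points, beside 1.177 points over all promoters. The list and its tests were chosen with earlier results known, and it was counted, not tested. *Cd40lg*, which encodes the CD40 ligand of helper T cells and is on X, stood at 88.1% (female B) and 86.9% (male B) versus 47.5% (female T) and 4.05% (male T) (adjusted p = 0.0062). This promoter has 10 CpGs, and its call was lost under limma (adjusted p = 0.0534) and without any 1 of the 4 files (adjusted p from 0.0541 to 0.52). Its body was called too, 1 of the 42 bodies beside 0.595% of all bodies, with 90.7% and 90.2% in B cells against 50.1% in female and 15.4% in male T cells (adjusted p = 0.000375, and 0.0833 under limma). The T cells of the sexes stood apart at this gene. Genes on X have an inactive copy in females, and whether the female value comes from it was not tested.

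*Tnfrsf4*, which encodes OX40, another costimulatory receptor of T cells, was at 91.8% and 91.7% in the B files versus 56.0% and 55.6% in the T files (adjusted p = 0.000103). Without the male B or the male T file the difference was as large, 36.0 and 35.7 points, with an adjusted p of 0.0706 and 0.0657. The ligand genes of BAFF and APRIL, *Tnfsf13b* and *Tnfsf13*, differed by -3.31 and -6.00 points (adjusted p = 0.621 and 0.301), *Cd70* by -0.00132 points and *Tnfsf9* by -1.22 points. The 15 signalling genes, which include the TRAF and NF-kappaB genes, had a median size of 1.05 points, with no promoter past the size threshold.

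**Figure D5:**
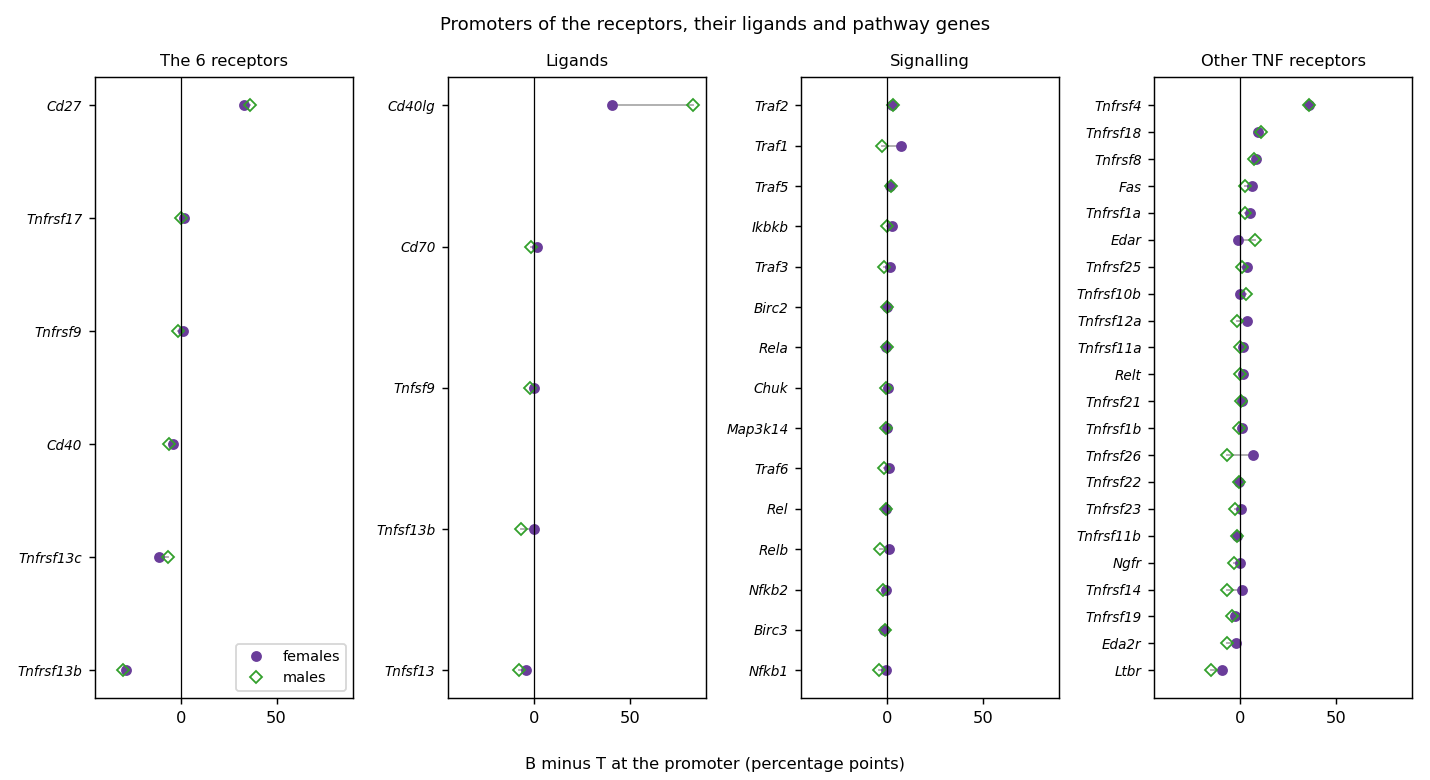
Difference between B and T cells (percentage points) at promoters in females (filled circles) and males (open diamonds) for the 6 receptors, 5 ligands, 15 signalling genes and 22 other TNF receptors. *Tnfrsf13b* lies to the left of the others, and *Cd27*, *Cd40lg* and *Tnfrsf4* to the right, with *Cd40lg* alone wide apart between the sexes.

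The cell types were checked at marker promoters. Of 10 B cell genes 7 were called lower in B cells, such as *Ms4a1* with 10.5% and 15.3% in the B files versus 93.6% and 93.5% in the T files, and of 10 T cell genes 7 were called higher in B cells, such as *Cd3e* with 83.4% and 86.6% against 3.45% and 1.87%. Not called were the B cell genes *Ebf1*, *Pax5* and *Cr2* (-3.97, -15.3 and -4.46 points) and the T cell genes *Tcf7* and *Bcl11b* (10.7 and 3.45 points). The T cell gene *Cd28*, also not called, went the other way (-3.29 points). It was at 90.1% and 90.7% in the B files versus 94.0% and 93.4% in the T files. Like the called T cell genes, the CD8 genes *Cd8a* and *Cd8b1* were lower in T cells than in B cells, between 38.5% and 70.9% in T cells. Of the 14 promoters of myeloid, NK, plasma and erythroid genes the quasi-binomial model called 0, with 3 at an unadjusted p under 0.05. Limma also called 0 of them, with 3 at an unadjusted p under 0.05. With 0.915% of all promoters called, 0 of 14 does not tell whether such cells were in the pools. The plasma cell promoters and *Eomes* were at most 7.48% in every file, too low for a fall of 20 points. The largest difference among the 14 was at the myeloid gene *Lyz2*, with 41.5% and 50.7% in the B files versus 64.1% and 66.7% in the T files. Its mean of -19.3 points passed the p-value threshold of the quasi-binomial model (adjusted p = 0.0436) but not the size. Summed over the autosomal CpGs listed, all with 5 or more reads, the 4 files held read counts of 278275973 to 339923001, or 14.6 to 17.7 a CpG. In these sums a read counts once at each CpG it covers. The mean depth at the measured CpGs of the 6 loci was 13.3 to 20.2. Between 88.9% and 96.5% of the reference CpGs of each locus were measured.

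Letters of lymphoid factors' binding motifs were searched on both strands of the 34 called windows. EBF1, a B cell factor, was searched as TCCCNNGGG, and these letters were in 3 of the 20 windows lower in B cells and 2 of the 14 higher in B cells, beside 9.79% of all windows and, over the genome, 25.6% of the windows called lower and 9.19% of those called higher in B cells. PU.1, as GAGGAAGT, was in 0 and 1, beside 6.01%, 11.1% and 7.47% in the same order. RUNX, as TGTGGTTT, was in 0 and 0, beside 8.13%, 9.37% and 16.1%, and TCF/LEF, as CTTTGATC, was in 2 and 1, beside 3.94%, 3.58% and 6.59%. The counts are too small to be read against these shares, and a missing match says only that the letters are not in the window.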

How the data were processed

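Whole-genome bisulfite sequencing of 8 samples was deposited as 4 files, 1 for each group (female B, female T, male B, male T). Whether a file merges both samples of its group is not stated, so each was a single measurement. Per the deposited values, the authors gave for each CpG the methylated fraction to 3 decimals and the count of reads covering it, with strands merged and CpGs under 5 reads left out. The submitters' processing notes list Trim Galore, FastQC, Bismark 0.13.1 and mm10. Duplicate removal and conversion rate are not given in the sources used here. The protocol oxidized part of each sample, and the files used are named as plain bisulfite libraries. Positions in the files count from 0 and were converted to count from 1.

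Methylated reads were the fraction times the count, rounded. CpGs with 5 or more reads in all 4 files were summed over 1 kb windows, promoters and gene bodies with 3 or more CpGs. A quasi-binomial logistic fit to the reads had terms for cell type and sex and 1 residual degree of freedom. Dispersions were squeezed with limma 3.58.1 in R 4.3.3, with a prior from features that have 5 or more expected methylated and unmethylated reads in every file. That prior was preferred to one from all windows with results of the latter known. Adjustment was by Benjamini-Hochberg over all features. The window fit was also run on simulated windows with known differences, whose results are not given here.

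The 6 receptors, the other gene lists and the markers were chosen with earlier results of these data known. Named were the 6 receptors, at most 5 called windows of each (those with the largest smaller of the female and male differences), and pathway genes with a called promoter or body. The ligand genes *Tnfsf13b*, *Tnfsf13*, *Cd70* and *Tnfsf9* were named outside this rule, and none had a called promoter or body. Stretches of CpGs, sequences and motifs were added later as descriptions. Alternatives were other coverage minimums, window sizes, thresholds, priors, promoter and body limits, Fisher's exact test in each sex, limma on log2 ratios with a pseudocount of 1, other terms, unweighted means over CpGs and leaving out each file.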

Additional observations from a re-analysis of the deposited data

Results flagged for a closer look

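The *Tnfrsf9* promoter had opposite signs of B minus T in the sexes, with 1.02 points in females and -1.55 points in males. The difference between the sexes was not tested.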

How the results depend on the processing

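No called window of the 6 loci changed direction with a minimum of 10 reads or with any 1 file left out. The other alternatives that keep the 1 kb windows use the same differences, so they could not change a direction. Of the 34 windows called, 34 kept the call without the sex term and at 10 points, 33 under Fisher's exact test in each sex, 31 of 33 with a minimum of 10 reads, 32 of 32 with at least 5 CpGs, 24 at 30 points, 20 under limma and 0 with the dispersion prior from all windows. With each file left out 30 to 33 of these windows kept it, and 30 to 37 were called in all. Those lost were the *Cd40* window at 165054001 (lowest size -14.0 points without the male B file), the *Cd27* windows at 125238001 (19.0 without the female B file) and 125229001 (24.4 without the male B file), the *Tnfrsf13c* window at 82218001 (-17.8 without the male T file) and the *Tnfrsf17* window at 11317001 (-17.7 without the male B file). The *Cd27* window at 125232001 was 8.01 points with a minimum of 10 reads.

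Counts over the genome and in the loci were 73162 and 60 with 500 bp windows, 16857 and 15 with 2 kb windows, and 20613 and 20 under limma. With the prior from all windows both were 0, with 198479 and 82 at an unadjusted p under 0.05; the prior was then the only choice changed. Over the genome 84621 windows were called at 10 points and 21016 at 30 points. Female against male, 221 autosomal windows were called at 10 points, 0 under limma (103088 at an unadjusted p under 0.05) and 0 with no cell type term (28805).

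At 10 points 424 promoters and 470 bodies were called, the *Tnfrsf17* body among them (-18.3 points). Of the pathway promoters *Tnfrsf4* alone was called with a minimum of 10 reads (1, as *Cd40lg* then had too few CpGs to be tested) and under limma (1). The small *Tnfrsf17* promoter difference turned to -0.876 with a minimum of 10 reads, -1.18 with 500 bp to either side and -1.81 with 1 kb before to 200 bp after the start, and that of *Tnfrsf9* to 0.279 and 0.0691 under the last 2. With the first 1 kb included 68 bodies were called, 1 of them a receptor's, and *Tnfrsf13c* was at -16.1 points (adjusted p = 0.0774). With a minimum of 10 reads 1 receptor's body was called and *Tnfrsf13c* was at -12.7 points (adjusted p = 0.00569). With each file left out 35 to 53 promoters were called over the genome, 1 to 2 of the receptors' and 0 to 1 of the pathway's; the 0 without the male B or the male T file came with 8 and 5 at an unadjusted p under 0.05. The *Cd27* promoter then ranged from 32.6 to 36.0 points and lost its call without the male T file, *Tnfrsf17* from -0.844 to 2.85 and *Tnfrsf9* from -1.87 to 1.34. The cause of these changes was not tested, other than that fewer samples entered the last.

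The groups share no replicate numbers, which does not tell whether B and T cells came from the same animals. No pairing by animal was used. The sex term of the model set the B file of each sex against the T file of that sex. Depth of 14.6 to 17.7 reads a listed CpG limits single CpGs more than windows.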
